A study of Mus musculus with 54 samples.

Results

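The clustered protocadherins are cell-surface adhesion molecules of the cadherin family, encoded side by side in an alpha, a beta and a gamma cluster. They were taken as all gene symbols of those clusters in the deposited table, which gave 57 of 16772 genes: 13 alpha, 22 beta and 22 gamma members. RNA was sequenced from mouse prostate tumour tissue of 48 animals (54 libraries, since 6 animals gave 2 pieces of tissue). In the alpha and gamma clusters each gene has a first exon and promoter of its own that is spliced to exons shared by the whole cluster, whereas each beta gene stands as a complete exon without shared ones. In neurons the choice of promoter depends on DNA methylation, CTCF and cohesin, and the proteins give single neurons a surface identity by which their branches recognise and avoid each other. The C-type members (Pcdhac1, Pcdhac2, Pcdhgc3, Pcdhgc4 and Pcdhgc5) lie at the end of their cluster and are regulated apart from the others.

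The animals formed 11 groups. Castrated TKO mice had received the Ezh2 inhibitor CPI1688 (4 animals, 18 to 19 weeks old) or vehicle (4 animals, 15 to 19 weeks). Mice castrated at 12 weeks and collected at endstage were DKO_EE (5 animals, 35 to 59 weeks), DKO_EP (5 animals, 34 to 37 weeks) and DKO (4 animals, 39 to 99 weeks). Intact mice collected at endstage were DKO_EE (8 animals, 28 to 42 weeks), DKO_EP (3 animals, 39 to 52 weeks) and DKO (3 animals, 35 to 46 weeks), and intact mice collected at 12 weeks were 4 each of DKO_EE, DKO_EP and DKO. Per the series description, DKO_EE and DKO_EP are DKO mice that also carry Ezh2 deletions; the labels used here do not say what EE, EP, DKO or TKO stand for, which alleles and exons are deleted, or which promoter drives the deletion. Animals carry a number within their group that only names them, p-values measure the spread between these animals, and several comparisons share a group, such as intact endstage DKO_EE.

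The table gives log2 of a normalized count plus 1, and this is the scale of every level below unless another is named. The level of a cluster is log2 of the summed normalized counts of its members plus 1. Libraries held 3687048 to 9741808 reads over all genes of the table, and 1 read was worth 0.725 to 2.97 normalized counts, so that a member near 1 on the log2 scale rests on about 1 read. Intervals given below cover counting error only. All members lie on the plus strand of chromosome 18 (GRCm38, GENCODE release M21): the alpha genes between 36930184 and 37187661, the beta genes between 37264938 and 37524479 and the gamma genes between 37661793 and 37841873. Of the annotated exonic bases, 38.0% to 54.9% of each alpha gene and 27.8% to 66.8% of each gamma gene belong also to another member, against 0% to 9.7% of a beta gene. A read from a shared exon does not say which alpha or gamma promoter it came from, so values of single alpha and gamma genes depend on how the authors' counting divided such reads.

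A pair of castrated animals stood apart from their groups. DKO castrated animal 2, the oldest at 99 weeks, had a level of 14.2 for the basal keratin Krt5 and of 3.59 for the neuroendocrine granule protein Chga, whereas the other 3 animals of its group had Krt5 levels of 0 to 3.62 and Chga levels of 10.1 to 10.5. TKO vehicle animal 1 likewise had a Krt5 level of 11.9 and a Chga level of 6.06, against 0 to 9.48 and 10.01 to 12.2 in the other 3 vehicle animals. Among intact endstage tumours, Lars2 took 14.2% to 21.6% of the reads in all DKO_EP libraries and up to 35.3% in DKO_EE libraries, against at most 0.026% in DKO libraries. Ezh2, the targeted gene, was lower in intact endstage DKO_EE tumours (7.41 to 8.76) than in DKO tumours (9.47 to 9.88; limma, adjusted p = 0.0194), and its levels in DKO_EP tumours (9.30 to 9.51) reached into the DKO range. Because the deleted exons are not named, the summed transcript is a limited check of the deletion.

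All 3 clusters were transcribed in every group, at unequal levels, and the alpha cluster was the one that varied most between animals. Per kilobase of exon, and averaged over all animals, Pcdhgc3 had 87.1 normalized counts per kilobase, Pcdhb16 80.2 and Pcdhb2 62.3, and the order depended on the group. Pcdhb16 was above Pcdhgc3 in intact endstage tumours (84.7 and 65.1 in DKO_EE, 139 and 115 in DKO_EP, 125 and 79.3 in DKO) and in castrated DKO_EE tumours (85.4 and 76.9), and below it in the other groups, as at 12 weeks in DKO (12.7 and 45.1). The alpha gene with the highest mean level was Pcdha9, yet alpha members ranked from 38 to 56 of the 56 members with a single annotated gene, which leaves out Pcdha11. The median share of Pcdhgc3 in the gamma cluster was 16.2% in DKO_EE, 16.5% in DKO_EP and 16.9% in DKO at intact endstage, against 16.2%, 14.2% and 15.5% in these genotypes at 12 weeks.

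**Figure D1:**
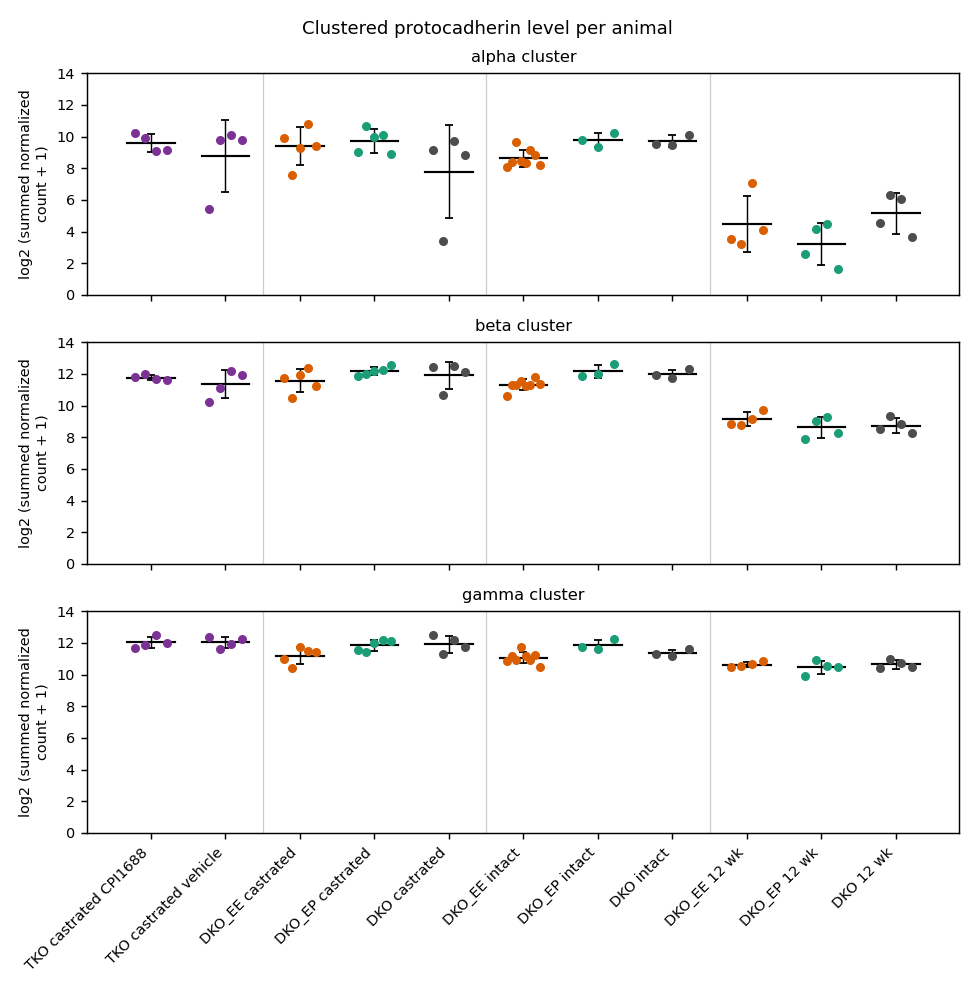
Level of each cluster in each animal, as log2 of the summed normalized counts of its members plus 1, in the 11 groups. Points are animals, horizontal lines group means and bars 1 SD; the alpha and beta levels of intact endstage animals lie above all 12-week animals, while gamma levels overlap, and DKO castrated animal 2 (3.41) and TKO vehicle animal 1 (5.42) fall out of their groups in the alpha panel.

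The first comparison asked how the clusters differed between intact tumours at endstage and intact prostate at 12 weeks, within each genotype. Most alpha and beta members rose in all 3 genotypes, most of the gamma cluster did not pass the test in DKO_EE and DKO, and no member fell. The alpha level was 8.64 ± 0.53 in DKO_EE (SD, n = 8), 9.77 ± 0.44 in DKO_EP (SD, n = 3) and 9.72 ± 0.35 in DKO (n = 3) at endstage, against 4.48 ± 1.76, 3.22 ± 1.34 and 5.15 ± 1.27 in these genotypes at 12 weeks (SD, n = 4 each). The lowest endstage animal, at 8.08, lay above the highest 12-week animal, at 7.06. The beta level was 11.3 ± 0.34 in DKO_EE, 12.2 ± 0.43 in DKO_EP and 11.98 ± 0.28 in DKO at endstage, against 9.13 ± 0.44, 8.62 ± 0.65 and 8.73 ± 0.47 at 12 weeks. For gamma the corresponding levels were 11.1 ± 0.37, 11.9 ± 0.33 and 11.4 ± 0.21 at endstage, against 10.6 ± 0.16, 10.5 ± 0.42 and 10.6 ± 0.27 at 12 weeks, and the lowest endstage animal, at 10.5, lay within the 12-week range.

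By gene, limma on all 16772 genes called a member at a Benjamini-Hochberg adjusted p under 0.05. In DKO_EE, 31 of 57 members were higher at endstage (8 alpha, 21 beta, 2 gamma) and 0 lower, where 23.6% of all genes were called higher and 27% lower. Among DKO_EP animals 44 members were higher (10 alpha, 22 beta, 12 gamma) and 0 lower, against 21.3% of all genes higher and 22.9% lower. In DKO animals 34 members were higher (9 alpha, 22 beta, 3 gamma) and 0 lower, against 18% and 18.7% of all genes. With limma-voom on recovered reads the members called were 30 in DKO_EE, 43 in DKO_EP and 33 in DKO. The median log2 fold change of the alpha, beta and gamma members was 3.73, 2.19 and 0.27 in DKO_EE, 4.96, 3.63 and 1.10 in DKO_EP, and 4.97, 3.33 and 0.29 in DKO, whereas the median over all genes was between -0.07 and -0.04. Several alpha genes had no read in a group; with those set at a floor of 3 reads over the group, and left out where both groups were at or under it, the alpha medians were 3.78 in DKO_EE, 5.74 in DKO_EP and 5.01 in DKO.

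**Figure D2:**
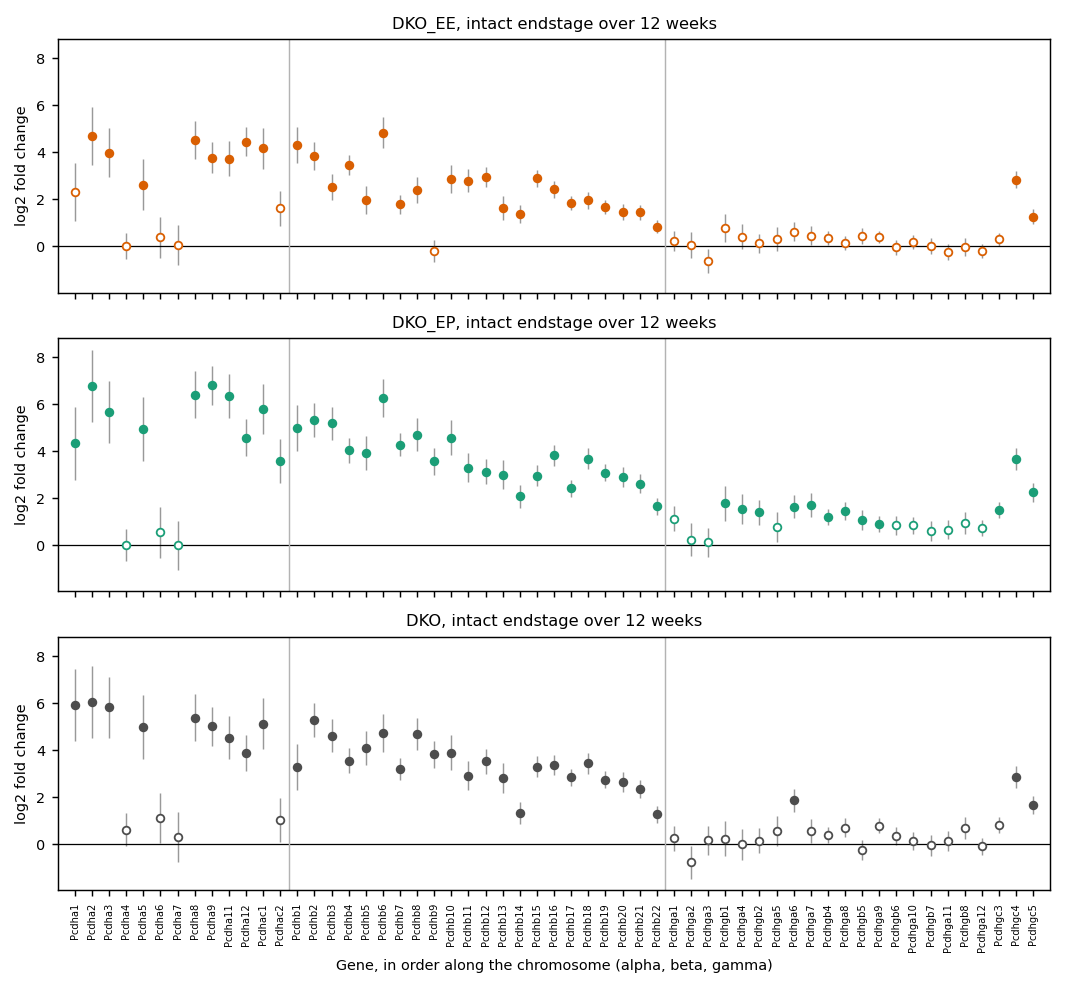
Log2 fold change of every member, intact endstage over 12 weeks, in order along the chromosome (alpha, beta, gamma from left to right), for DKO_EE, DKO_EP and DKO. Points are limma estimates with bars of 1 SE, filled where the adjusted p was under 0.05; filled points cover 8, 10 and 9 of 13 alpha members, all beta members but Pcdhb9 in DKO_EE, and 2, 12 and 3 gamma members in DKO_EE, DKO_EP and DKO.

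Within the beta cluster the member with the highest mean level, Pcdhb16, had levels of 7.88, 8.81 and 9.32 (lowest, median and highest) in intact endstage DKO_EE tumours, of 9.26, 9.30 and 9.87 in DKO_EP tumours and of 9.26, 9.38 and 9.42 in DKO tumours. At 12 weeks it had 6.09, 5.92, 5.92 and 7.36 in DKO_EE, 4.87, 6.25, 6.46 and 5.04 in DKO_EP and 5.74, 6.75, 6.06 and 5.38 in DKO animals. Every endstage animal lay above every 12-week animal, with log2 fold changes of 2.43 (SE 0.35, limma adjusted p = 7.7e-07) in DKO_EE, 3.82 (SE 0.44, adjusted p = 4.7e-08) in DKO_EP and 3.37 (SE 0.44, adjusted p = 3e-07) in DKO. Its share of the beta cluster lay between 10.3% and 19.7% in every animal. Fold changes were uneven along the cluster. Pcdhb6, near the alpha end, rose by 4.83, 6.27 and 4.74 on the log2 scale in DKO_EE, DKO_EP and DKO, and Pcdhb22, the last beta gene, by 0.83, 1.66 and 1.27. Pcdhb9 was the only beta gene not called in DKO_EE, with levels of 4.01, 5.12 and 6.12 (lowest, median and highest) at endstage, against 5.28, 4.41, 5.63 and 6.06 at 12 weeks; in DKO_EP and DKO its log2 fold changes of 3.58 (SE 0.58) and 3.81 (SE 0.58) passed the test.

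In the alpha cluster the rise started from almost no reads. Pcdha12 had levels of 4.44, 5.43 and 6.03 (lowest, median and highest) in endstage DKO_EE, of 5.86, 5.86 and 6.45 in DKO_EP and of 5.64, 6.12 and 6.32 in DKO tumours. At 12 weeks the same gene had 0, 0, 2.20 and 1.42 in DKO_EE, 1.19, 2.06, 2.65 and 0 in DKO_EP and 2.33, 2.43, 1.64 and 2.17 in DKO animals. The groups did not overlap, and the log2 fold changes were 4.45 (SE 0.62), 4.58 (SE 0.77) and 3.88 (SE 0.77) in DKO_EE, DKO_EP and DKO. Pcdha9 rested on 15, 2 and 8 reads at 12 weeks in DKO_EE, DKO_EP and DKO, against 613, 379 and 324 reads at endstage. Its log2 fold change was 3.78 (SE 0.66) in DKO_EE and 5.01 (SE 0.83) in DKO; in DKO_EP, with 2 reads at 12 weeks, the ratio of read rates was 265 with a 95% exact interval of 73.0 to 2199. Pcdha1 had 0 reads in DKO_EP animals at 12 weeks and was at least 35.9-fold higher at endstage, counted against a floor of 3 reads over the group.

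The C-type members differed among themselves. Pcdhac1 followed the alpha cluster and passed the test in all 3 genotypes, with a log2 fold change of 4.17 (SE 0.86) in DKO_EE and of 5.13 (SE 1.07) in DKO. Pcdhac2 was the alpha gene best seen at 12 weeks, where it held a median of 48.7% of the alpha cluster in DKO_EE, 41.9% in DKO_EP and 60.6% in DKO animals, against 8.33%, 6.67% and 4.33% in these genotypes at endstage. It passed the test in DKO_EP, with a log2 fold change of 3.57 (SE 0.94, adjusted p = 0.0023), while the changes of 1.61 (SE 0.76, adjusted p = 0.0725) in DKO_EE and 1.03 (SE 0.94, adjusted p = 0.414) in DKO did not; whether the genotypes differ in this change was not tested.

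Pcdhgc4, a gamma gene known from mice to promote the survival of interneurons, was the gamma member with the smallest p in all 3 genotypes. At endstage it had levels of 7.07, 8.01 and 8.61 (lowest, median and highest) in DKO_EE, of 8.64, 8.69 and 8.87 in DKO_EP and of 8.06, 8.13 and 8.37 in DKO tumours. The 12-week levels were 5.28, 5.13, 4.38 and 5.68 in DKO_EE, 5.48, 4.66, 4.89 and 5.25 in DKO_EP and 5.53, 5.90, 4.66 and 5.21 in DKO animals. No endstage animal overlapped the 12-week animals, and the log2 fold changes were 2.84 (SE 0.38), 3.66 (SE 0.47) and 2.86 (SE 0.47) in DKO_EE, DKO_EP and DKO. Pcdhgc5 rose by 1.26 (SE 0.32), 2.25 (SE 0.40) and 1.66 (SE 0.40) on the log2 scale. Pcdhgc3 passed the test in DKO_EP, with 1.49 (SE 0.34, adjusted p = 0.000513), and had 0.30 (SE 0.27, adjusted p = 0.356) in DKO_EE and 0.81 (SE 0.34, adjusted p = 0.0566) in DKO. The 19 other gamma genes had a median log2 fold change of 0.19 in DKO_EE, with 0 called, and of 0.23 in DKO, where Pcdhga6 alone was called at 1.87 (SE 0.49, adjusted p = 0.00267). In DKO_EP the median was 0.96 and 9 of these 19 were called, among them Pcdhga8 at 1.46 (SE 0.38) and Pcdhga7 at 1.71 (SE 0.50), the second of which was lost without intact DKO_EP animal 3. The 12 gamma calls in DKO_EP became 6 without intact animal 3, 7 without 12-week animal 1 and 8 without intact animal 1 or 12-week animal 3. Calls over all genes went from 7411 to 5922, 7091, 6332 and 6752 in these fits. Lars2 took 14.2% to 21.6% of the reads in the endstage DKO_EP libraries, against at most 0.002% in those at 12 weeks. The part of Lars2 in the gamma change of DKO_EP was not tested, and the 2 cannot be told apart in these libraries.

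Other genes tied to the clusters were described from fixed lists. Over all genes 23.6%, 21.3% and 18% were called higher at endstage in DKO_EE, DKO_EP and DKO, and 27%, 22.9% and 18.7% lower. Of 20 measured genes that flank the clusters on chromosome 18, 3 were higher and 1 lower in DKO_EE, 1 higher and 1 lower in DKO_EP and 2 higher and 1 lower in DKO, with median log2 fold changes of -0.04, -0.05 and 0.03. The histidine-tRNA ligase gene Hars was among the higher ones in all 3 genotypes, at 0.43, 0.46 and 0.48. Of 16 genes of CTCF, cohesin, DNA methylation and repressor proteins that act on the clusters, 11 were higher and 1 lower in DKO_EE, 9 higher and 2 lower in DKO_EP and 9 higher and 2 lower in DKO. Dnmt1, the maintenance DNA methyltransferase, rose by 1.73 (SE 0.23), 2.01 (SE 0.29) and 1.55 (SE 0.29) in DKO_EE, DKO_EP and DKO, and Rad21, a cohesin subunit, by 1.27, 1.11 and 1.505. Rest, which represses neuronal genes outside neurons, fell in all 3, with log2 fold changes of -2.99 (SE 0.55), -3.62 (SE 0.69) and -2.79 (SE 0.69). The 12 non-clustered protocadherins went both ways: 1 higher and 3 lower in DKO_EE, 3 higher and 2 lower in DKO_EP, 3 higher and 1 lower in DKO. Of 14 kinases and WAVE complex members through which clustered protocadherins signal, 5 were higher and 3 lower in DKO_EE, 4 and 4 in DKO_EP and 3 and 1 in DKO; the kinase Fyn rose by 1.74, 1.75 and 1.91.

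Markers of cell types moved with the same comparison. All 10 neuroendocrine markers were higher at endstage in each genotype, Chga by 5.55, 7.90 and 6.76 on the log2 scale in DKO_EE, DKO_EP and DKO, and the summed level of the list was 14.04 to 14.7 in the intact endstage animals against 7.31 to 11.6 in the 12-week animals. Of 7 markers of Schwann cells and nerve glia, 4, 2 and 6 were lower in DKO_EE, DKO_EP and DKO and 0 higher; Sox10, which defines these cells, had levels of 0 to 3.99 in intact endstage animals and 1.83 to 6.78 in 12-week animals. Of 7 neuron markers, 4 were higher and 1 lower in DKO_EE, 2 and 1 in DKO_EP and 3 and 2 in DKO. Of 8 fibroblast markers, 8, 4 and 0 were lower in DKO_EE, DKO_EP and DKO, and of 5 basal markers 5, 5 and 3, with 0 higher in both lists. Their part in the protocadherin difference was not tested, and in bulk tissue more cells of a type and more RNA per cell cannot be told apart. Age, tumour stage and cell makeup differ together between these groups and cannot be told apart either.

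**Figure D3:**
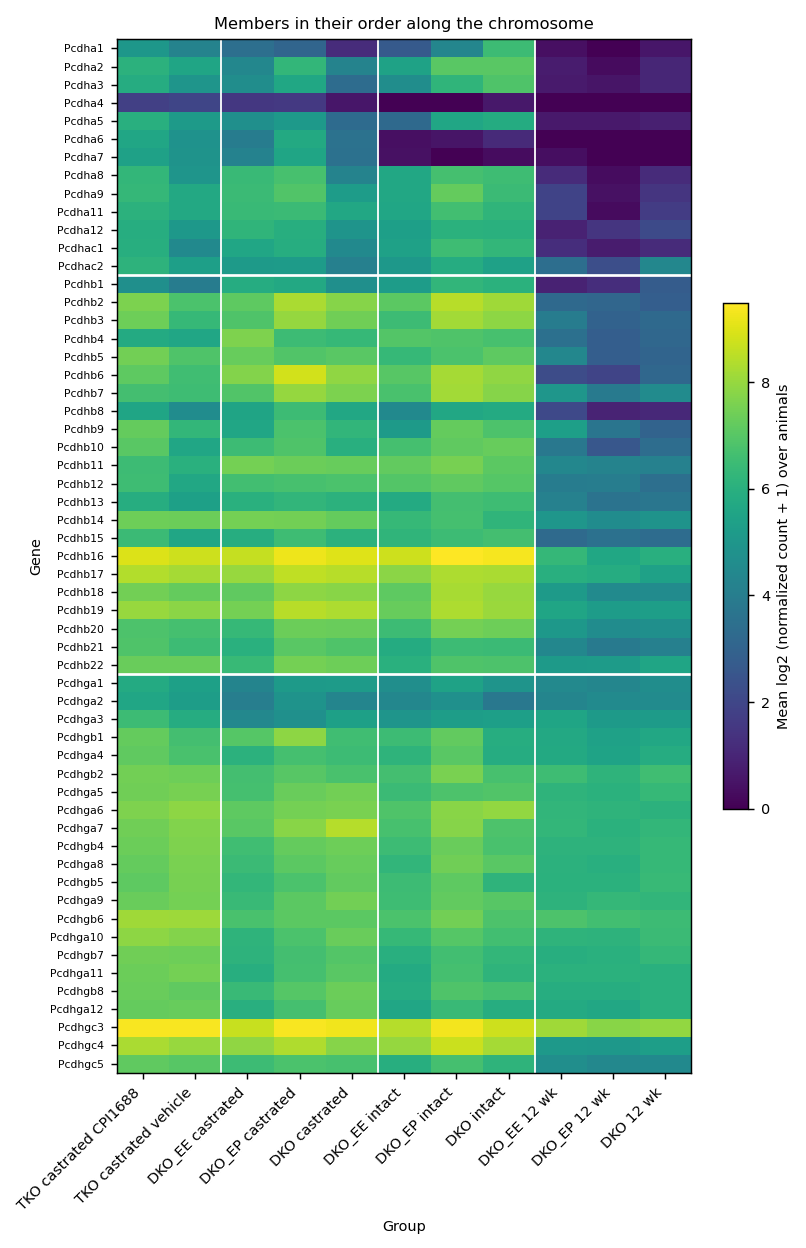
Mean level of every member (rows, in order along the chromosome) in the 11 groups (columns), as log2 of a normalized count plus 1 averaged over animals. White lines separate the clusters and the settings; the 12-week columns have the lowest alpha levels, and Pcdha6 and Pcdha7 are near 0 in all 6 intact columns.

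At 12 weeks the genotypes were compared with each other. Ttn took 2.55%, 0.11%, 0.18% and 1.40% of the reads in DKO animals 1 to 4 at this age. It took 2.28% and 2.53% in DKO_EP animals 2 and 4. In the other DKO_EP animals and in all DKO_EE animals of this age it took at most 0.0165%. The part of Ttn in the comparisons that use the 12-week groups was not tested. DKO_EE against DKO gave 0 of 55 members with any spread called higher and 0 lower by limma (0% and 0% of all genes), 2 at an unadjusted p under 0.05 and 0 by limma-voom. DKO_EP against DKO gave 0 higher and 0 lower (0% and 0% of all genes), 2 at an unadjusted p under 0.05 and 0 by limma-voom. Pcdhb9 had the smallest p in DKO_EE, with 5.28, 4.41, 5.63 and 6.06 against 2.81, 3.29, 2.06 and 3.90 in DKO, and a log2 fold change of 2.32 (SE 0.60, adjusted p = 0.975); it was chosen after its values were seen. The alpha level at 12 weeks was highest in DKO_EE animal 3, at 7.06, and in DKO animals 2 and 3, at 6.32 and 6.08. These 3 animals also had the highest levels of the neuronal tubulin Tubb3, 9.76, 8.51 and 8.71, against 3.54 to 6.69 in the other 12-week animals. Their levels of Pcdhac2 were 6.37, 5.62 and 5.60, and those of the other 12-week animals 1.19 to 3.33. Whether nerve tissue in the sample contributes these reads was not tested.

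The next comparison asked whether the Ezh2 deletions altered the clusters in intact endstage tumours. In DKO_EE against DKO, 1 of 57 members was lower and 0 higher, where 0.541% of all genes were called lower and 1.12% higher. That member, Pcdhb3, had levels of 5.82, 6.54 and 7.07 (lowest, median and highest) in DKO_EE tumours and of 7.73, 7.81 and 8.02 in DKO tumours, which do not overlap. Its log2 fold change was -1.36 (SE 0.24, limma adjusted p = 0.0147). The call was lost without any 1 of the 3 DKO animals and with the Lars2 level as a covariate. Calls over all genes fell in these fits too, from 277 to 74, 121 and 64 without DKO animal 1, 2 or 3. With the Lars2 level they fell to 6. The medians of the alpha, beta and gamma members were -0.77, -0.78 and -0.25 against -0.03 over all genes. In this fit 49 members had a negative estimate, and 19 had an unadjusted limma p under 0.05. These 2 counts were not set against the share of all genes, and alpha and gamma members share exonic bases, so members are not independent. Only Pcdhb3 passed the adjusted test.

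DKO_EP against DKO gave 0 higher and 0 lower at intact endstage by limma (0% and 0% of all genes), 1 at an unadjusted p under 0.05 and 0 by limma-voom, with medians of 0.00, 0.15 and 0.54. With the Lars2 level as a covariate these medians were -0.35, -0.02 and -0.05. Every DKO_EP library and no DKO library was high in Lars2. DKO_EE against DKO_EP gave 5 lower and 0 higher, where 0.643% of all genes were called lower and 0.986% higher. All 5 were beta genes: Pcdhb9 at -2.10 (SE 0.42), Pcdhb3 at -1.67 (SE 0.24), Pcdhb7 at -1.40 (SE 0.24), Pcdhb2 at -1.37 (SE 0.31) and Pcdhb6 at -1.17 (SE 0.24). Pcdhb7, for example, had levels of 6.24, 6.70 and 7.49 (lowest, median and highest) in DKO_EE tumours against 7.89, 8.02 and 8.56 in DKO_EP tumours, without overlap. Without DKO_EP animal 1, 2 or 3 the members called numbered 3, 2 and 1, without DKO_EE animal 7 they numbered 8, and with age as a covariate 0. Calls over all genes moved in these fits too, from 271 to 168, 91, 47, 315 and 16. DKO_EE animals were 28 to 42 weeks old and DKO_EP animals 39 to 52 weeks. Of the list of Polycomb repressive complex 2 genes, 1 of 11 was lower in DKO_EE, which was Ezh2 itself, at -1.34 (SE 0.26) against DKO and -1.12 (SE 0.26) against DKO_EP, and no flanking gene was called in either comparison.

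**Figure D4:**
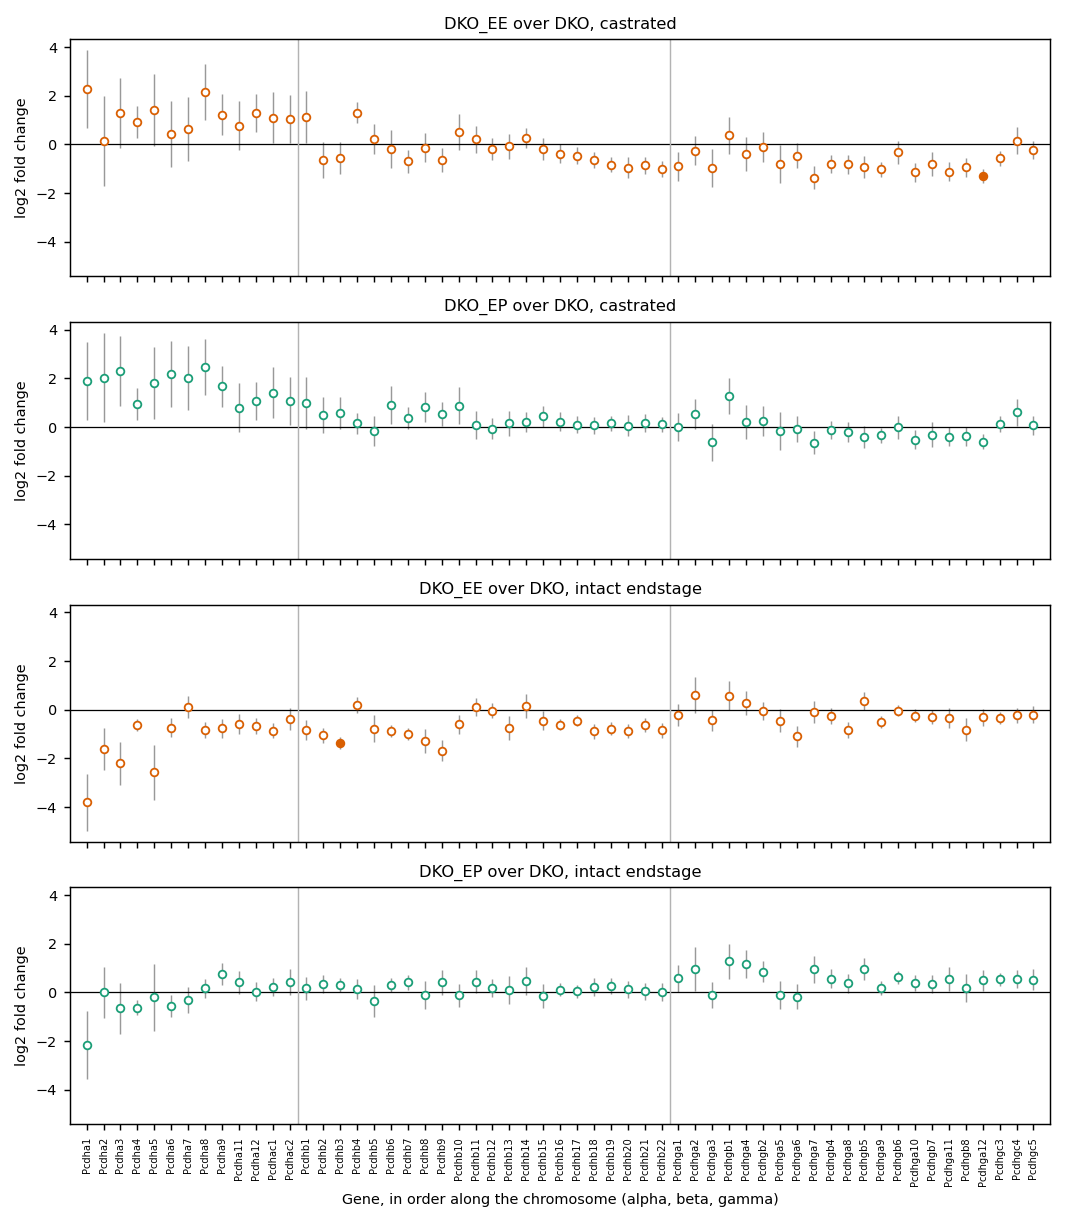
Log2 fold change of every member for DKO_EE over DKO and DKO_EP over DKO, in castrated and in intact endstage tumours, in order along the chromosome. Points are limma estimates with bars of 1 SE, filled where the adjusted p was under 0.05: Pcdhga12 in castrated and Pcdhb3 in intact DKO_EE tumours.

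In castrated endstage tumours DKO_EE against DKO gave 1 member lower and 0 higher, where 4.3% of all genes were called lower and 3.42% higher. Pcdhga12 had levels of 6.03, 5.36, 6.44, 6.07 and 6.03 in DKO_EE tumours against 7.49, 6.78, 7.33 and 7.55 in DKO tumours. The groups did not overlap, and the log2 fold change was -1.30 (SE 0.30, adjusted p = 0.0195). The call was lost without DKO castrated animal 1 or 4 and with age as a covariate. Calls over all genes were 783, 974 and 454 in these fits, against 1278. Without DKO castrated animal 2, the animal with high Krt5, 9 members were lower, 5 beta and 4 gamma. Over all genes 1443 were called without that animal, against 1278 with it. The alpha median was 1.10 with it, 0.12 without it and -0.15 with age as a covariate. Marker lists moved with this comparison too: of 8 fibroblast markers 5 were lower in DKO_EE and 0 higher, and their summed level was 12.5 to 13.8 in DKO_EE tumours against 14.1 to 15.3 in DKO tumours; their part in the result was not tested.

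DKO_EP against DKO in castrated tumours gave 0 higher and 0 lower by limma (0.0181% and 0.0121% of all genes), 0 at an unadjusted p under 0.05 and 0 by limma-voom. Its alpha median of 1.81 became 0.77 without DKO castrated animal 2 and -0.17 with age as a covariate; DKO_EP animals were 34 to 37 weeks old and DKO animals 39 to 99 weeks. DKO_EE against DKO_EP gave 0 higher and 0 lower (0.707% and 0.99% of all genes), 11 at an unadjusted p under 0.05 and 0 by limma-voom. The interaction tested whether the genotype effect differs between castrated and intact tumours. It gave 0 members higher and 0 lower for DKO_EE (0.0119% and 0% of all genes). For DKO_EP it gave 0 and 0 (0.0119% and 0.0119%). Limma-voom called 0 in both, and 7 and 3 members had an unadjusted limma p under 0.05. The counts at an unadjusted p in these castrated comparisons and interactions were not set against the share of all genes.

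CPI1688 was set against vehicle in castrated TKO mice. Limma called 0 of 57 members higher and 0 lower (0% and 0% of all genes), 0 had an unadjusted p under 0.05, and limma-voom called 0. Pcdhb16 had levels of 9.26, 9.04, 8.83 and 8.81 with CPI1688 and of 7.85, 8.11, 9.61 and 9.48 with vehicle, and Pcdhgc3 had 8.98, 8.85, 9.997 and 9.72 with CPI1688 and 9.87, 9.62, 8.81 and 9.30 with vehicle. Treated and vehicle animals overlapped in both genes, with log2 fold changes of 0.22 (SE 0.41) and -0.01 (SE 0.33). The alpha, beta and gamma medians were 0.78, 0.51 and 0.05, and they depended on the setting: without vehicle animal 1 they were -0.34, -0.08 and 0.19, and with age as a covariate 2.21, 0.96 and -0.39. That animal had Pcdhac1 at 0, where the other 3 vehicle animals had 5.68, 6.47 and 5.87 and the 4 CPI1688 animals 6.38, 5.89, 5.58 and 5.98.

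TKO vehicle tumours against castrated DKO tumours gave 0 members higher and 0 lower by limma (0.304% and 0.262% of all genes) and 0 by limma-voom. At an unadjusted limma p under 0.05 there were 6 members, a count not set against the share of all genes. These groups differ in age as well as in genotype, and each holds an animal that stands apart. In both such animals the alpha cluster was low (3.41 in DKO castrated animal 2 and 5.42 in TKO vehicle animal 1, against 8.84 to 10.1 in the other animals of these groups), the beta cluster was 10.7 and 10.2 (against 11.1 to 12.5), and the gamma level was 11.3 and 12.4 (against 11.6 to 12.5), so that the TKO animal lay within the range of the others in gamma.

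Castrated endstage tumours were then set against intact endstage tumours of the same genotype. In DKO_EE, 4 members were higher and 0 lower, where 8.3% of all genes were called higher and 8.19% lower. The DKO_EP comparison gave 2 members higher and 0 lower, against 4.89% and 4.98% of all genes. In DKO, 3 members were higher and 1 lower, against 7.01% and 6.93% of all genes. The cluster medians stayed small for beta (0.22, -0.18 and -0.17) and gamma (0.11, -0.08 and 0.57) in DKO_EE, DKO_EP and DKO, and all of these but the gamma median in DKO turned sign when an animal was left out. The alpha medians were 0.77, -0.32 and -1.30, and the last was -0.14 without DKO castrated animal 2, while that in DKO_EP became 0.03 without intact animal 3 and 0.04 without castrated animal 5. Without intact DKO animal 2 or 3 the members called in DKO numbered 2, and without castrated DKO_EE animal 1 or 4 those in DKO_EE numbered 2. Calls over all genes went from 2338 to 1783 and 1648 in DKO, and from 2766 to 2330 and 2418 in DKO_EE.

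Pcdha6 and Pcdha7, neighbouring alpha genes, had more reads in most castrated than in any intact library, with some overlap. Pcdha7 had levels of 5.62, 1.0, 2.05, 6.69 and 5.64 in castrated DKO_EE tumours, of 4.84, 7.17, 6.04, 5.98 and 3.86 in castrated DKO_EP tumours and of 5.71, 0, 4.89 and 3.59 in castrated DKO tumours. In intact endstage tumours 6 of 8 DKO_EE animals and all 3 DKO_EP animals were at 0, and DKO animals had 0.92, 0 and 0. Over all groups Pcdha6 had at most 2 reads in each of the 32 intact libraries, and Pcdha7 likewise, whereas their medians in the 22 castrated libraries were 37.5 and 36 reads. The intact animals reached 1.48 for Pcdha6 and 1.99 for Pcdha7. Castrated DKO animal 2, at 0 for both genes, castrated DKO_EE animal 2 and TKO vehicle animal 1 lay within that range for both. Castrated DKO_EE animal 3 lay within it for Pcdha6, at 1.03, and just above it for Pcdha7, at 2.05. Of all 16772 genes, 10 showed this pattern of at most 2 reads in every intact library and a median of at least 20 reads in castrated ones, and 48 showed the reverse.

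Both genes were called in DKO_EE and DKO_EP, and Pcdha7 in DKO. With so few reads in the intact groups, fold changes are given as ratios of read rates. Reads were pooled over the animals of a group, so the intervals leave out the spread between animals. For Pcdha7 it was 133 (95% exact interval 44.6 to 649) in DKO_EE and 75.8 (13.2 to 3037) in DKO, and in DKO_EP, where intact tumours had 0 reads, the gene was at least 54.7-fold higher by a floor of 3 reads over the group. For Pcdha6 the ratio was 80.5 (22.1 to 669) in DKO_EP. Pcdha4, which lies near them and had at most 1 read in any intact library, was called in DKO_EE at 13 reads in castrated against 0 in intact tumours, which is at least 10.02-fold higher by the same floor; the call was lost without castrated animal 1, 4 or 5, and that of Pcdha7 in DKO without intact animal 2 or 3 or castrated animal 1 or 3. Pcdha9, further along the cluster, did not show the pattern. It had 18.6, 25.04 and 12.2 normalized counts per kilobase in castrated DKO_EE, DKO_EP and DKO tumours. In intact endstage tumours of these genotypes it had 10.1, 29.7 and 18.1. These values rest on 450, 556 and 210 reads in castrated and 613, 379 and 324 in intact tumours. The reads were summed over unequal numbers of libraries, so the totals cannot be compared directly. Castration and whatever else differs between these sets of libraries cannot be told apart, since every castrated library falls on 1 side. Castrated TKO tumours also had these reads, with Pcdha7 at 6.38, 5.80, 3.94 and 5.56 under CPI1688 and at 1.88, 6.17, 5.23 and 6.21 under vehicle.

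**Figure D5:**
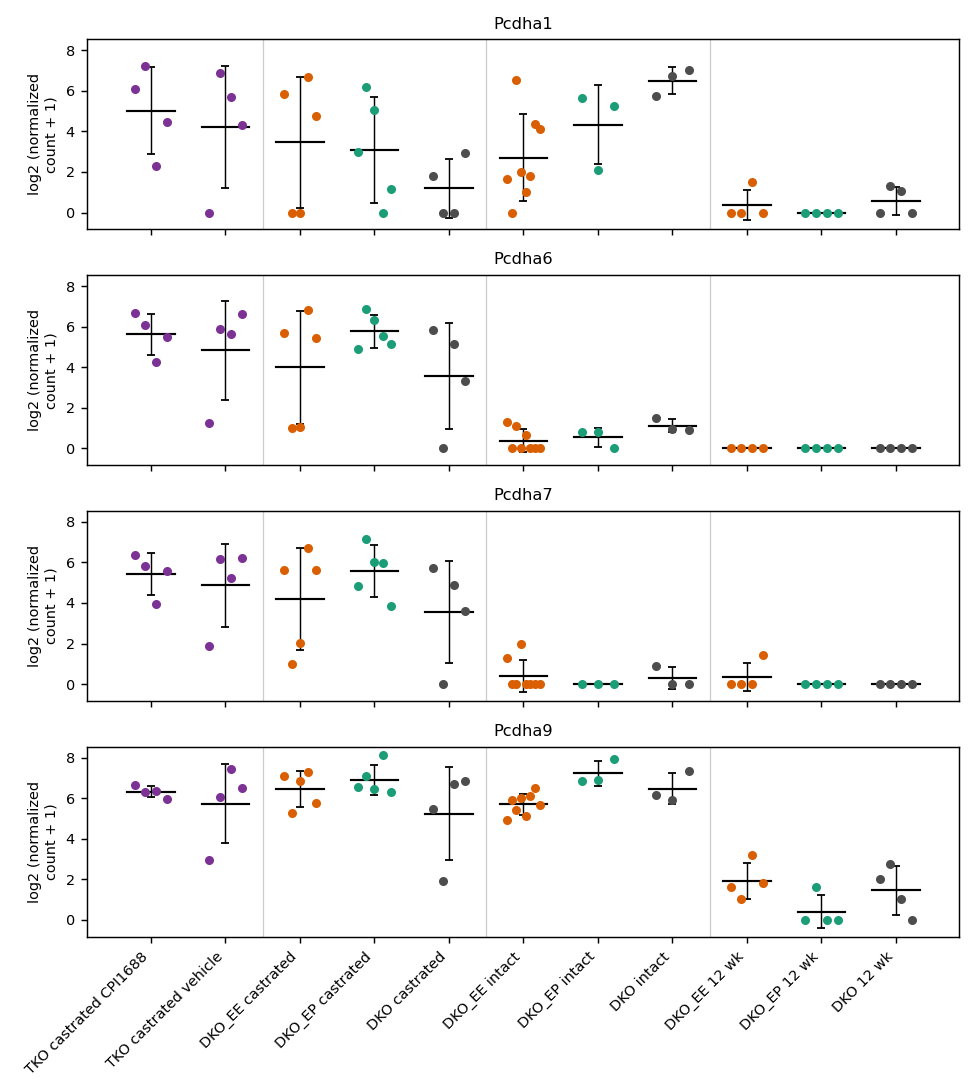
Level of Pcdha1, Pcdha6, Pcdha7 and Pcdha9 in each animal, as log2 of a normalized count plus 1, in the 11 groups. Points are animals, lines group means and bars 1 SD; Pcdha6 and Pcdha7 lie at or under 2 in all intact animals and mostly between 3 and 7 in castrated ones, while Pcdha9 is high in intact endstage animals as well.

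The remaining calls between castrated and intact tumours concerned other members. Pcdha1 was lower in castrated DKO tumours, with 1.81, 0, 0 and 2.93 against 5.77, 6.71 and 7.03 in intact ones, a log2 fold change of -5.31 (SE 1.54, adjusted p = 0.0142), and the call was lost without intact DKO animal 3. In castrated DKO_EE tumours it had 5.87, 0, 0, 6.66 and 4.78 and in intact ones 0 to 6.55, so that both groups hold animals without a read and animals above 6. Pcdhga12 rose in castrated DKO tumours, with 7.49, 6.78, 7.33 and 7.55 against 5.96, 5.55 and 6.25, a log2 fold change of 1.36 (SE 0.36, adjusted p = 0.0058), and Pcdhga7 with it at 1.60 (SE 0.50, adjusted p = 0.0239). The first call was lost without intact DKO animal 2, and the second without intact DKO animal 1 or castrated DKO animal 3. Pcdhb14 was higher in castrated DKO_EE tumours, with 8.01, 6.39, 8.26, 8.11 and 6.74 against 5.25 to 7.06 in intact ones, and its log2 fold change was 1.14 (SE 0.36, adjusted p = 0.0223) with overlapping groups; the call was lost without intact DKO_EE animal 1 or castrated DKO_EE animal 1, 3 or 4. Of the 20 flanking genes, 6 were lower in castrated DKO_EE tumours, 3 in castrated DKO_EP tumours and 3 in castrated DKO tumours, and 0 were higher. Over all genes 8.19%, 4.98% and 6.93% were lower in these genotypes, and 8.3%, 4.89% and 7.01% higher.

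Within the alpha cluster animals differed in which genes had high values. These values depend on how the counting divided reads from shared exons. Castrated DKO_EE animals 2 and 3 had Pcdha1 and Pcdha2 at 0 and Pcdha6 at 1.0 and 1.03, yet Pcdha9 at 5.29 and 6.83 and Pcdhac1 at 4.52 and 5.42. In the other 3 animals of that group Pcdha2 had 6.94, 8.08 and 6.92. Intact DKO_EE animal 1 had Pcdha2 at 1.67, where the other 7 animals had 4.92 to 7.49, and its Pcdha9 level of 4.94 was close to theirs. Pieces of tissue from 1 animal differed as well, and the labels do not say whether they come from 1 tumour. Between the 2 pieces the alpha level differed by 0.129 to 1.89 over 6 animals, the beta level by 0.038 to 0.28 and the gamma level by 0.034 to 0.902. Some pairs were unlike in Lars2. The largest gamma gap, in DKO_EE animal 8, was between pieces with 0.008% and 18.955% Lars2. The largest alpha gap, in DKO_EE animal 7, was between pieces with 0.192% and 0.009%. These are descriptions of single animals with no test.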

How the data were processed

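The deposited values are in the unit log2, and their spacing is that of log2 of a normalized count plus 1; the builds GRCm38 and mm10 and the tools STAR, RSEM, FastQC, DESeq2 and limma are named per the submitters' processing notes, while roles and versions are not given in the sources used here. Removing the logarithm showed that each library moves in whole steps (100% of values lie within 0.05 of a multiple), from which reads were recovered; 8.92% of values were 0. The table has 56 columns, of which 2 with no matching sample were not used, and the SKO model was not analysed here. Pieces of 1 animal were averaged on the log2 scale, so the animal is the replicate. Libraries held 3687048 to 9741808 reads over the genes.

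R 4.3.3 with limma 3.58.1 was used for all differences (lmFit, contrasts.fit, eBayes with a trend) on all genes with any spread, with Benjamini-Hochberg adjustment over all of them and a call at adjusted p under 0.05. Genotypes were compared in a fit of their setting (12 weeks, intact endstage, castrated endstage, TKO); settings and interactions in a fit of all 11 groups. The fit was tried on counts simulated from castrated DKO_EE and DKO libraries, with known changes in genes above a minimum mean. That trial does not cover genes with few reads or the fit of all 11 groups. Members and lists were chosen with earlier results of these data known. Named genes are the C-type members, the member of each cluster with the highest mean, up to 5 called members per comparison and cluster by smallest p, Ezh2 and up to 3 called members of a list; others named are single values that show a range. Python 3.11.15 with pandas 2.3.3 and matplotlib 3.10.9 made summaries and figures. Alternatives left out the lowest 25% of genes, raised the offset to 8, normalized by quantiles, weighted samples, used limma-voom on the recovered reads, fitted other sets of groups, took age or the log2 Lars2 level of the animal as a covariate, kept 1 library per animal, or left out each animal in turn.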

Additional observations from a re-analysis of the deposited data

Results flagged for a closer look

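In 90 sets of a gene or cluster level in 1 group of 4 to 10 animals, 11 had an animal far from the rest. Chance marks about 1 in 20 groups where sets are independent and values are continuous. These sets overlap, since a cluster level holds its members, and some hold values at 0. The 11 of 90 can therefore not be set against that rate. Most of the 11 concern the animals with high Krt5. In TKO vehicle animal 1 the alpha level was 5.42, where the nearest other animal had 9.80, and Pcdhac1 was 0.0, where the nearest had 5.68. DKO castrated animal 2 had an alpha level of 3.41 against 8.84 in the nearest animal, Pcdhac1 and Pcdhac2 at 0.0 against 5.79 and 5.27, and Pcdhgc5 at 5.15 against 7.13. Intact DKO_EE animal 1 had a low beta level of 10.6 and a low Pcdhb16 level of 7.88, where the nearest animals had 11.3 and 8.64. Intact DKO_EE animal 4 had Pcdhgc5 at 7.20, above 6.09 in the next animal. At 12 weeks, DKO_EE animal 4 had Pcdhb16 at 7.36 against 6.09 in the next, and DKO_EP animal 2 had Pcdha9 at 1.64, which is 2 reads, where the other 3 animals were at 0.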

How the results depend on the processing

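The counts of members higher at intact endstage than at 12 weeks kept within 1.5 times in total under every alternative run, though not for the gamma members of DKO_EP alone (6 to 14, against 12): 28 to 32 in DKO_EE, 37 to 46 in DKO_EP and 31 to 38 in DKO. No difference of a single named gene that passed the test turned its direction under the alternatives run. Small counts moved. Called members in DKO_EE against DKO at intact endstage numbered 1. They numbered 6 with array weights, 4 with limma-voom, 0 with all 11 groups in 1 fit and 0 with the Lars2 level as a covariate. Over all genes the calls were 277, then 1308, 328, 223 and 6. Members called numbered 2 with 1 library per animal and 0 to 4 with each animal left out. In the libraries under 10% Lars2, chosen after seeing the data, 1 member was called. DKO_EE against DKO_EP at intact endstage gave 5, and 17, 1, 0 and 1 with array weights, all 11 groups, age and the Lars2 level. With animals left out it gave 1 to 8. Calls over all genes moved too, from 271 to 1430, 245, 16 and 171, and to between 47 and 602 with animals left out. For castrated DKO_EE against DKO the 1 call became 12 with array weights, 6 with all 11 groups and 0 with age, and 0 to 9 with animals left out. Over all genes 1278 calls became 2407, 1549 and 454. Castrated DKO_EE against DKO_EP became 5 and 1 with array weights and all 11 groups, and 0 to 2 with animals left out. Its calls over all genes went from 281 to 1079 and 405. At 12 weeks all 11 groups gave 1 for DKO_EE against DKO, where 84 of all genes were called. Castrated against intact DKO gave 4, then 2 without low genes, 10 with array weights, 2 with only its own groups and 2 to 6 with animals left out. Over all genes 2338 calls became 2129, 3679 and 990 in the first 3 of these. DKO_EE gave 4, then 1 without low genes and 2 to 4 with animals left out. Its calls over all genes went from 2766 to 2422 without low genes. DKO_EP gave 2, then 0 and 4 without low genes and with array weights, where 1656 calls over all genes became 1354 and 3577. The fit of the 12-week groups holds no alpha gene once the lowest 25% of genes are left out; the causes of the other moves were not tested. No paired analysis was possible because the animal numbers within a group only name animals and pair none across groups. Alpha genes at 12 weeks rest on 0 to 17 reads per group except Pcdhac2, so their levels there are limited by depth.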
